A study of Mus musculus with 31 samples.

Results

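The 6 genes described here, Clock, Dbp, Cry1, Cry2, Per1 and Per2, belong to the circadian clock and its output. They were listed by name and looked up by symbol in the platform annotation, which held all 6 among 15096 genes with a symbol, each with 1 probe. They were followed on 31 dual-colour arrays, each of which set whole-brain RNA of 1 BXD/TyJ recombinant inbred strain (males, 8 weeks old, RNA of 3 replicates of each strain mixed into 1 pool) against whole-brain RNA of C57BL/6J. The strains were divided here by number into 7 later ones, BXD33 to BXD42, and 24 earlier ones, BXD1 to BXD32. All carry mixtures of the C57BL/6J and DBA/2J genomes. Strain RNA carried Alexa Fluor 647 and C57BL/6J RNA with an added spike-in mix carried Alexa Fluor 555 on every array, with no dye swap, and each strain had 1 array.

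The values are log ratios, taken as log2 of strain over C57BL/6J. This direction is likely from the channel order, the dyes and the sample titles, but neither it nor the log base is stated. A set of 384 unnamed spots averaged 1.59. If they detect the spike-in mix, which is not given, they go against this direction. The opposite direction would turn the sign of every log ratio, mean and difference below. Because a log ratio of 2 brain RNAs carries no level, the labelled tissue could not be checked against its markers, and levels of different genes could not be compared. In whole-brain RNA, fewer cells of a type and less RNA per cell cannot be told apart. The p-values measure the spread between arrays of pooled RNA, and the C57BL/6J RNA counts as 1 control sample whose own spread they leave out. Strain RNA carried the same dye on every array. A dye effect of a probe, the same on all arrays, was thus not separated from a strain difference in means and shared signs. The size of such a dye effect was not tested.

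In mammals the proteins CLOCK and BMAL1 (gene Arntl) pair on E-box sequences and switch on the Per and Cry genes, whose proteins come back to repress that pair. Dbp is another target of the pair and encodes a factor that binds D-boxes in output genes. The transcripts of Per1, Per2, Cry1 and Dbp cycle over the day in most mouse tissues, so that their level in one sample depends on the hour at which it was taken. Clock itself varies little over the day in many mouse tissues, including the suprachiasmatic nucleus, the hypothalamic pacemaker. The labels used here give no hour of collection for strains or for C57BL/6J, and its part in the values below was not tested.

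RefSeq promoter windows on build GRCm38.p6, each from 250 bases before to 50 bases after an annotated start, were found for 5 of the 6 genes, with 8 windows in all. They were searched on both strands for the E-box CACGTG and for the related CACGTT, which reads AACGTG on the other strand. The Per1 and Cry1 windows are shown because each holds the palindromic E-box, in capitals, and because, on a set of 7 arrays described further on, the mean of Per1 lay below and that of Cry1 above the mean of the other arrays. The first Per1 window lies at chr11:69098699-69098998 on the plus strand, and the Cry1 window at chr10:85185005-85185304 on the minus strand.
Per1: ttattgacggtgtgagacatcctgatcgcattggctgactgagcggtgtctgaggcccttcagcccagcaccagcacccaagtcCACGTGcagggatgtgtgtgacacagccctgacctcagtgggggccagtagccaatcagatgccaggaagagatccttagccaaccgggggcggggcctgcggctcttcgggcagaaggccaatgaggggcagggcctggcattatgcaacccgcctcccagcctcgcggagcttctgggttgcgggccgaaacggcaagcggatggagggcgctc
Cry1: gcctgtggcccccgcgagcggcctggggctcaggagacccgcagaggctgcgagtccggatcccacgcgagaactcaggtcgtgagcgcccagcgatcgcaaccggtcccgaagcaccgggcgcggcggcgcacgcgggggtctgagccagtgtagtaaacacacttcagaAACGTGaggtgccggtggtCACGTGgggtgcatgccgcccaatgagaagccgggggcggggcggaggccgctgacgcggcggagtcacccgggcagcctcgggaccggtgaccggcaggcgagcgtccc
In the Per1 window CACGTG starts at base 85. In the Cry1 window CACGTG starts at base 191, and AACGTG, also in capitals, at base 172. The Cry2 window held AACGTG at base 85, whereas the single Dbp window, the 3 Clock windows and a second Per1 window held neither motif. Among 32851 promoters of the same length, 7.15% held CACGTG and 4.68% held CACGTT. A match describes the letters of a window and was not set against any binding data.

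Averaged over the 31 strains, Clock and Dbp were lower than in C57BL/6J, Cry1 was slightly lower and Cry2 was slightly higher. The means of Per1 and Per2 did not pass the test against 0. With no dye swap, these means hold any dye effect of a probe together with any strain difference. In limma with Benjamini-Hochberg adjustment over 21262 features, 4 of the 6 genes passed, 1 upward and 3 downward. Over all features 76.1% passed, 42.1% upward and 33.9% downward, so a pass in itself says little about these genes. Against a change of 1.2-fold, which 27.9% of features passed, Clock and Dbp passed and the other 4 did not.

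The activator subunit gene Clock had a lowest log2 ratio of −1.75 on BXD20, a median of −0.49 and a highest of −0.25 on BXD12. It was below 0 on all 31 arrays, which 6.79% of features were. Its mean was −0.71 ± 0.08 (SE, n = 31, limma adjusted p = 3.72e-09). The output factor gene Dbp ran between −1.17 on BXD2 and 0.08 on BXD6 with a median of −0.55. Only BXD6 and BXD16 were above 0, and the mean was −0.53 ± 0.07 (SE, n = 31, limma adjusted p = 1.87e-08).

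Among the repressors, Cry1 had a lowest value of −0.68 on BXD16, a median of −0.29 and a highest of 1.43 on BXD23. The BXD23 value stood far above the next highest, 0.11, and 28 of 31 arrays were below 0. The mean of Cry1 was −0.25 ± 0.06 (SE, n = 31, limma adjusted p = 0.000596), and without BXD23 it was −0.31. Its paralog Cry2 moved the other way and varied least of the 6, between −0.09 on BXD18 and 0.49 on BXD5 with a median of 0.18. Cry2 was above 0 on 27 of 31 arrays, and averaged 0.19 ± 0.03 (SE, n = 31, limma adjusted p = 4.41e-07).

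The period genes, whose proteins join the CRY proteins in repression and which light can induce in the pacemaker, lay on both sides of 0. Per1 ran between −0.42 on BXD8 and 0.50 on BXD32 with a median of 0.06, and was above 0 on 18 arrays. Per2 ran between −0.79 on BXD32 and 0.30 on BXD27, and was above 0 on 16 arrays. BXD32 thus held the highest Per1 value and the lowest Per2 value of the series. The means were 0.03 ± 0.04 for Per1 (limma adjusted p = 0.494) and −0.07 ± 0.04 for Per2 (limma adjusted p = 0.18; SE, n = 31 each). Centring by spot place changed the call of Per2, the sign of Per1 and the size of Cry2. After each array was centred at each place in the printed run of 8 spots, the mean of Per2 was −0.15 (limma adjusted p = 0.0034). The mean of Per1 was then −0.06 (limma adjusted p = 0.156), on the other side of 0. That of Cry2 was 0.0922 (limma adjusted p = 0.0055), about 2 times smaller than without this centring but still past the test. The means of Clock and Dbp moved as well, from −0.71 to −0.79 and from −0.53 to −0.62, and kept their calls.

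**Figure D1:**
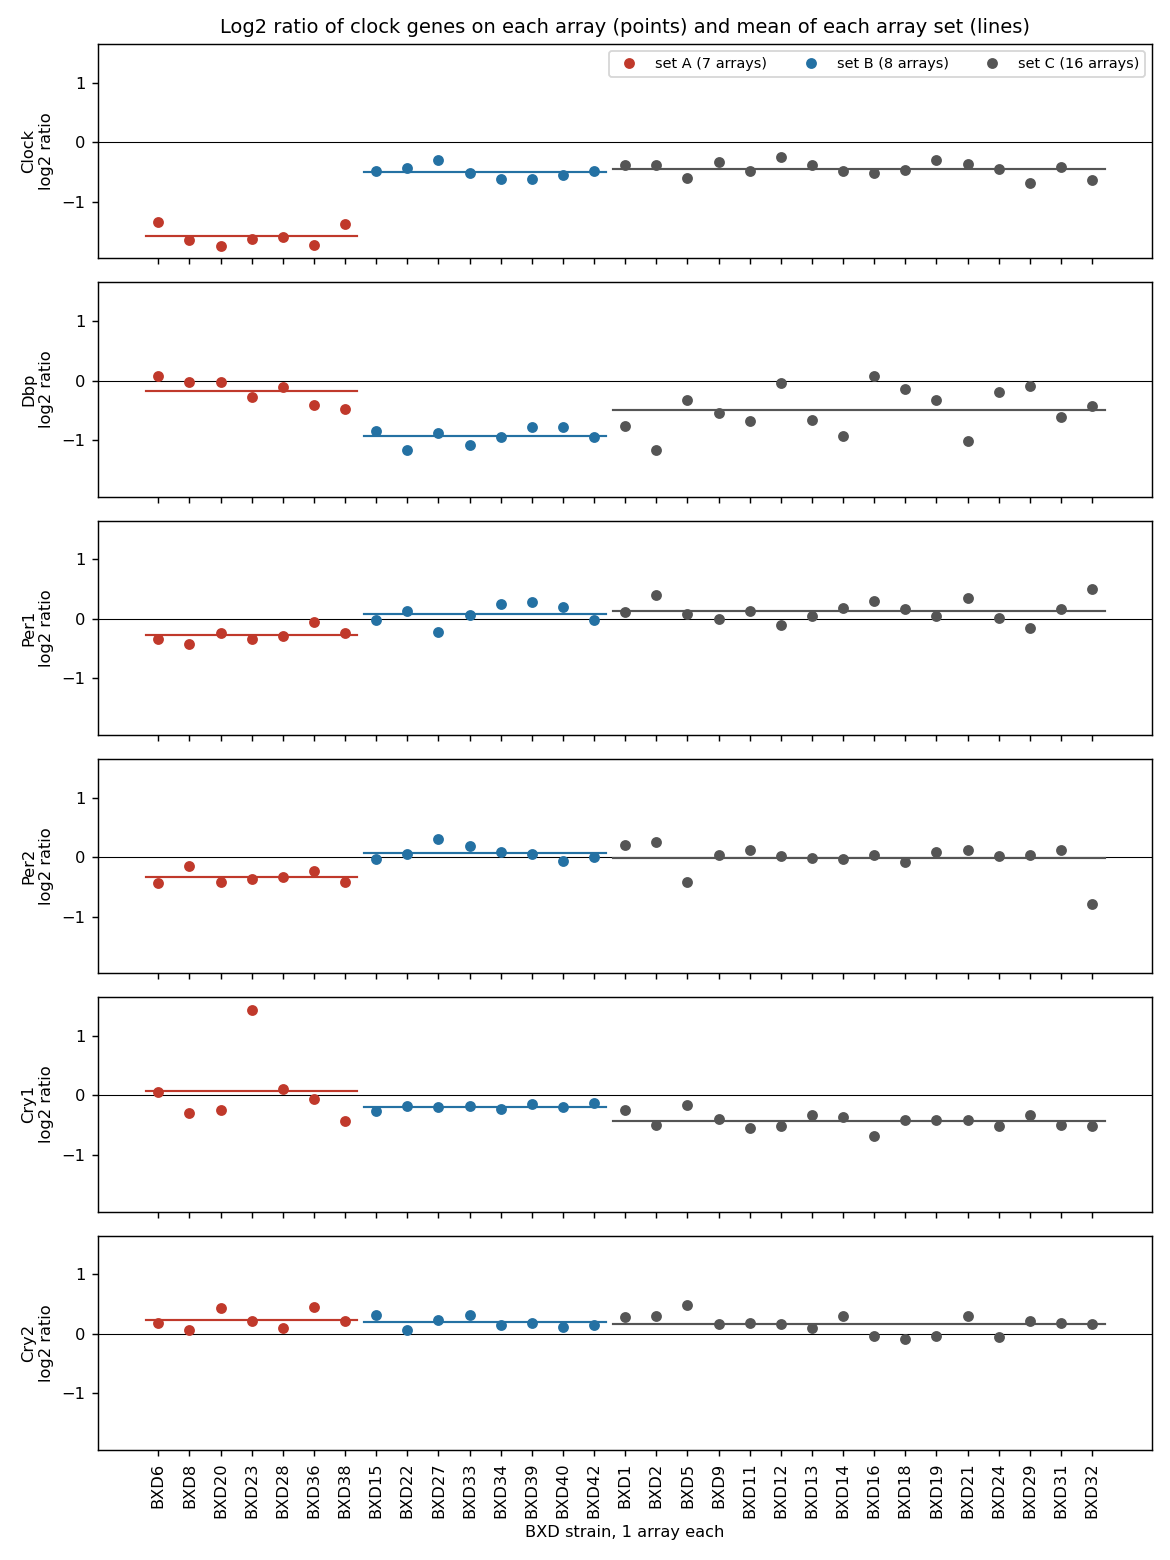
Log2 ratio of strain over C57BL/6J (vertical axis) for each of the 6 genes on each of the 31 arrays (horizontal axis, ordered by array set), 1 point per array and a line at the mean of each set. Clock lies between −1.75 and −1.34 on the 7 arrays of set A and between −0.68 and −0.25 on all others, and Cry1 on BXD23 stands at 1.43.

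The arrays did not form a single cloud. In a principal component analysis of all features other than the clock lists, the widest gap on the first component (28.7% of variance) set 7 arrays apart, BXD6, 8, 20, 23, 28, 36 and 38, called set A here. The widest gap on the second component (11.9%) set 8 others apart, BXD15, 22, 27, 33, 34, 39, 40 and 42, called set B, and the other 16 are called set C. Set A held 2 of the 7 later strains, set B held 5 and set C none. These sets were seen in the data and are not groups of the study. The labels give no batch, so a technical difference and a strain difference cannot be told apart in them.

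Clock divided along these sets. On set A its lowest value was −1.75, its median −1.62 and its highest −1.34 on BXD6. On the other 24 arrays the lowest value was −0.68 on BXD29, the median −0.47 and the highest −0.25. The 2 ranges did not overlap and were 0.66 apart, and 2.65% of all features likewise had every array of set A below every other array. The mean over set A was −1.11 below that over the other arrays, the 358th lowest such difference of 21262 features. Of the variance of Clock over arrays, 93.8% lay between the 3 sets, the third highest share of all features, whose median share was 33.8%. Within set C, Clock was among the steadier features, with an SD of 0.12 against a median of 0.21 over all features.

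**Figure D2:**
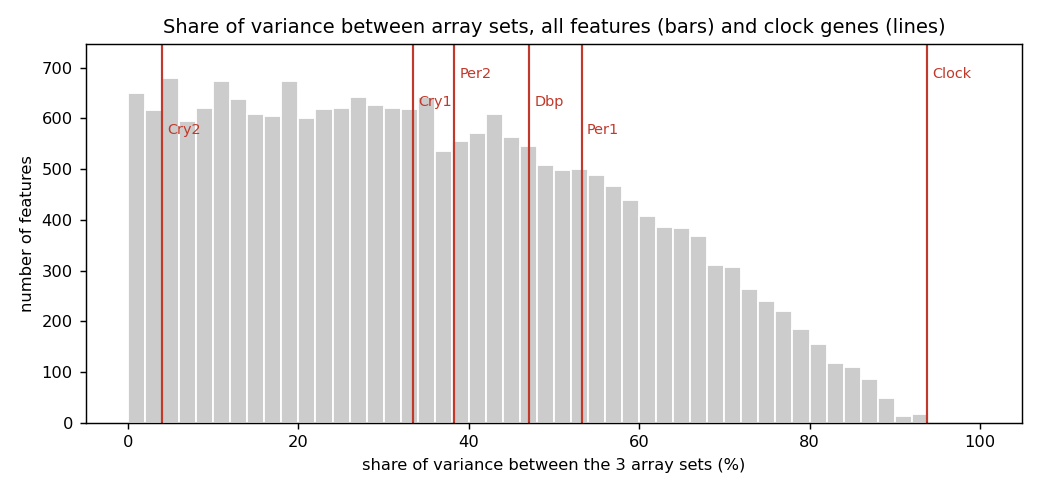
Number of features (vertical axis) by the percentage of their variance over 31 arrays that lay between the 3 array sets (horizontal axis), with lines at the 6 clock genes. Clock is at 93.8% and Cry2 at 4.04%, and the other 4 lie between 33.4% and 53.2%.

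The other 5 genes followed the sets less closely and overlapped between set A and the rest. By set A minus the other arrays, counted from the lowest of 21262 features, Per1 stood at percentile 14.8 and Per2 at 17.1. Dbp stood at 87.7, Cry1 at 86.2 and Cry2 at 55.9. Shifts of this size were thus common over all features. Per1 had a lowest value of −0.42, a median of −0.29 and a highest of −0.06 on set A, against −0.22, 0.12 and 0.50 on the other arrays. All 7 arrays of set A were below 0 for Per1, against 6 of the other 24. Per2 had a lowest value of −0.43, a median of −0.37 and a highest of −0.15 on set A, against −0.79, 0.04 and 0.30 on the other arrays. All 7 arrays of set A were again below 0, against 8 of the other 24, and BXD32 and BXD5 of set C lay as low as set A.

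Dbp and Cry1 ran the other way. Dbp had a lowest value of −0.49, a median of −0.11 and a highest of 0.08 on set A, against −1.17, −0.72 and 0.08 on the other arrays. Its lowest set was B, where it averaged −0.93 ± 0.14 (SD, n = 8) and stayed between −1.17 and −0.78. Set C spanned nearly the whole range of Dbp, between −1.17 on BXD2 and 0.08 on BXD16, with an SD of 0.37 that exceeded that of 84.7% of features. Cry1 had a median of −0.06 on set A, with BXD23 at 1.43 and BXD38 at −0.43, against a median of −0.34 on the other arrays, all of which were below 0. Cry1 on set B kept between −0.25 and −0.13, and on set C between −0.68 and −0.16. Cry2 averaged 0.23 on set A, 0.19 on set B and 0.16 on set C, and only 4.04% of its variance lay between the sets.

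Tested within one set at a time, the calls changed. On set A, Clock (mean −1.58), Per1 (−0.27) and Per2 (−0.34) were lower than C57BL/6J and Cry2 was higher, against 47.9% of features that passed in limma there. Dbp (−0.18, limma adjusted p = 0.0978) and Cry1 (0.08, limma adjusted p = 0.76) did not pass on set A. The sign of Cry1 there rests on BXD23, without which the mean was −0.145 (n = 6, limma adjusted p = 0.216). On set B, Clock, Dbp and Cry1 were lower and Cry2 higher, against 74.8% of features. On set C all but Per2 passed, against 76.1% of features, and Per1 was then above 0 with a mean of 0.14 (limma adjusted p = 0.00874). Over the 24 arrays outside set A, where 79.4% of features passed, the mean of Per1 was 0.12 (limma adjusted p = 0.00375), whereas that of Per2 was 0.01 (limma adjusted p = 0.791). Clock and Cry2 kept their direction and their call in each of the 3 sets.

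**Figure D3:**
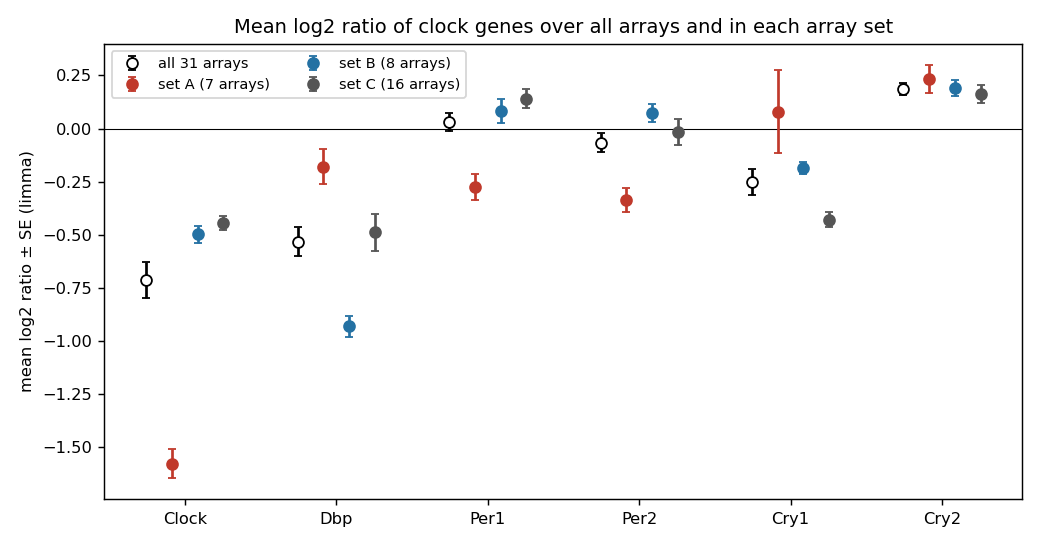
Mean log2 ratio of strain over C57BL/6J with SE bars from limma (vertical axis) for each of the 6 genes over all 31 arrays and over set A (7 arrays), set B (8) and set C (16). Per1 and Per2 average −0.27 and −0.34 on set A, and Dbp is lowest on set B, at −0.93.

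Clock was next set against the repressor and output genes. Since Clock itself varies little over the day in many tissues, this comparison does not set limbs of opposite peak against each other. Clock minus the mean of the other 5 genes had a lowest value of −1.75, a mean of −1.48 and a highest of −1.11 on set A, against −0.62, −0.33 and −0.14 on the other arrays. It was below 0 on all 31 arrays. Clock was the lowest of the 6 genes on all 7 arrays of set A, on none of set B and on 3 of set C. Dbp was the lowest on 16 arrays, Cry1 on 4 and Per2 on 1. Clock was itself below 0 on all 31 arrays and lowest on set A, so these counts partly restate its own values. They rank log ratios and not levels, and no share over all features was worked out for them. Between 3 and 5 of the 6 genes were negative on every array, so no array had all 6 on one side of 0.

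Across all arrays, with no term for array set, Clock had positive slopes with the period genes and negative slopes with Dbp and Cry1. Per1 rose by 0.31 ± 0.07 per unit of Clock (limma adjusted p = 0.00049) and Per2 by 0.33 ± 0.07 (limma adjusted p = 0.000442). Dbp fell by 0.39 ± 0.12 (limma adjusted p = 0.00921) and Cry1 by 0.38 ± 0.11 (limma adjusted p = 0.00604), and Cry2 had a slope of −0.07 (limma adjusted p = 0.329). On this count 50.1% of all features passed with Clock, so these 4 passes out of 5 stand beside a background of the same order.

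Within the array sets none of the 30 ordered pairs of the 6 genes passed in limma after adjustment over 21261 features. On simulated data this fit on Dbp recovered 8% of genes with a correlation of 0.5 and 97% with 0.8. Moderate links could thus be missed, here and in the counts of followers below. The 30 ordered pairs hold each pair of genes in both directions, so they are not separate tests. Unadjusted p-values under 0.05 were found for 5 of the 30 pairs, or 16.7%, and for 7.08% to 18.8% of all features, depending on the gene. The slopes on Clock were then −0.44 ± 0.25 for Per1 (limma adjusted p = 0.686), 0.60 ± 0.29 for Per2 (0.629) and −0.45 ± 0.43 for Dbp (0.824). For Cry1 the slope was −0.21 ± 0.45 (limma adjusted p = 0.936) and for Cry2 −0.25 ± 0.23 (0.819). Per1 thus changed the sign of its slope on Clock once the sets entered the fit. The slopes of Cry2 and Per1 on Dbp were −0.22 ± 0.09 (limma adjusted p = 0.266) and −0.21 ± 0.10 (limma adjusted p = 0.362). The slope of Cry2 on Cry1 was 0.04 ± 0.10 (limma adjusted p = 0.975) and that of Per2 on Per1 was −0.36 ± 0.23 (limma adjusted p = 0.788).

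**Figure D4:**
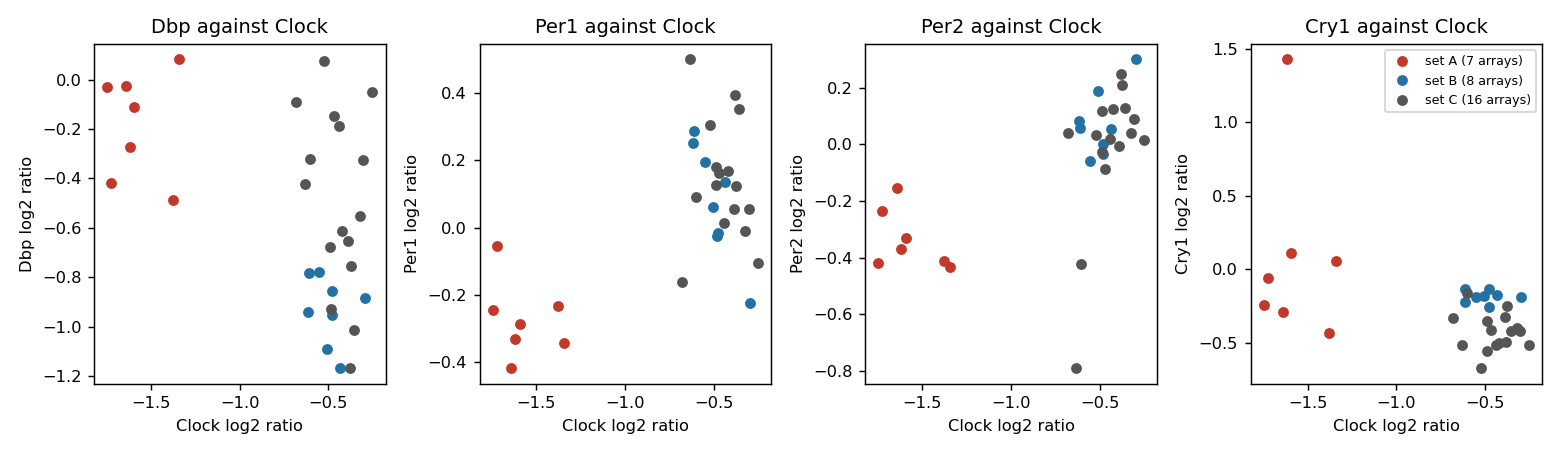
Log2 ratio of strain over C57BL/6J for Dbp, Per1, Per2 and Cry1 (vertical axes) against that of Clock (horizontal axis), 1 point per array, coloured by array set. Set A lies apart at Clock values of −1.34 and below, and within sets no slope on Clock passed the test.

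Over the whole array, 0 features followed Clock within the sets in limma at an adjusted p under 0.05, with 1676 at an unadjusted p under 0.05. None followed Cry2 or Per1 either, with 3125 and 1505 at an unadjusted p under 0.05. Dbp was followed by 239 features (1.12%), 193 with a positive and 46 with a negative slope, Cry1 by 232 (1.09%) and Per2 by 1138 (5.35%). Single strains carried much of this: without BXD23 the number for Cry1 was 4, without BXD32 that for Per2 was 320, and without BXD16 that for Dbp was 48. Without BXD2, BXD14, BXD21 or BXD29 the number for Dbp lay between 99 and 120, and without BXD5 it was 424. For Cry2 the number was 88 without BXD36 and between 1 and 10 without BXD6, BXD18, BXD29, BXD32 or BXD40, and for Clock it was 1 without BXD22. Of 27 other measured clock genes, 1 passed with any of the 6: Arntl2, a paralog of Arntl, had a slope of −0.38 on Cry1 (limma adjusted p = 0.0287).

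The genes with the most similar pattern were ranked by Pearson's r of deviations from the array-set means over 31 arrays, which share the arrays, their normalisation and the C57BL/6J RNA. For Dbp these were Ube2r2 (r = 0.839), Sarnp (0.809) and Zfp239 (0.782). With BXD6 and BXD16, the arrays whose log ratio lay farthest from the median of Dbp over all arrays, left out, r for Ube2r2 was 0.805. The arrays left out here and below were chosen on log ratios, not on deviations from set means. Other arrays may thus weigh more on r. For Per2 they were Fam219a (0.869), Plin5 (0.832) and Castor1 (0.831), and without BXD6 and BXD32 r was 0.820 for Fam219a and 0.612 for Plin5. For Cry1 they were 4930511M06Rik (0.866), Tpp2 (0.853) and Psmg3 (0.833), which fell to 0.522, 0.627 and 0.414 without BXD23 and BXD28. For Clock they were Galnt16 (0.688), Sprr1a (0.653) and Spc24 (0.647), for Per1 Cul2 (0.683), Paics (0.636) and Fndc5 (0.629), and for Cry2 Rab5c (0.717), Ass1 (0.706) and Mink1 (0.702). Of these 18, Ass1 is on the same chromosome as its clock gene, Cry2, on chromosome 2.

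Later strains were compared with earlier ones, a division made here by the strain numbers in the labels. None of the 6 genes passed in limma, against 0.48% of all features (102). That number lay between 0 and 596 when 1 strain at a time was left out, the lowest without BXD42 and the highest without BXD27. Clock averaged −0.84 ± 0.50 in the later strains and −0.68 ± 0.49 in the earlier strains (SD, n = 7 and 24), a difference of −0.16 (limma adjusted p = 0.683). With array set as a block that difference was −0.07 (limma adjusted p = 0.939). Dbp averaged −0.78 ± 0.25 in the later strains and −0.46 ± 0.40 in the earlier strains (SD), a difference of −0.32 ± 0.16 (SE, limma adjusted p = 0.248), and with the block −0.13 ± 0.16 (limma adjusted p = 0.942). The ranges of the 2 groups overlapped for both genes. The differences for Cry1, Cry2, Per1 and Per2 were between 0.01 and 0.07, with limma adjusted p between 0.698 and 0.952. With that block 0 features passed, with 1551 at an unadjusted p under 0.05, and the differences of Cry1 (−0.18) and Per2 (−0.02) were then negative. The largest of the 6 under that block was Per1, at 0.19 (unadjusted p = 0.0411, limma adjusted p = 0.659).

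Other genes of the clock were taken from a list of 43, of which 33 were measured. Leaving out the 6 genes, 27 were measured, 12 of them passing upward and 6 downward, with a median of 0.06 against 0.04 over all features. Over all features 76.1% passed, 42.1% upward and 33.9% downward, so these clock genes passed no more often than others, and the counts by role that follow stand beside the same shares. Of 4 activators measured, 1 passed upward and 2 downward. Arntl, the partner of Clock, averaged 0.13 ± 0.06 (limma adjusted p = 0.0415). On set A Arntl averaged 0.46, opposite in sign to Clock, against 0.03 on the other arrays, where it did not pass (limma adjusted p = 0.579). Npas2, a paralog of Clock that can stand in for it in mice, averaged −0.33 ± 0.05 (limma adjusted p = 7.87e-07), with −0.08 on set A against −0.40 on the other arrays. Npas2 was thus nearer to 0 on the arrays where Clock was lowest. Arntl2 averaged 0.07 (limma adjusted p = 0.0754).

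Of 6 repressors measured, 3 passed upward (Cry2, Per3 and Bhlhe40) and Cry1 downward. The period gene Per3 averaged 0.25 ± 0.06 (limma adjusted p = 0.000282), with 0.39 on set A against 0.21 on the other arrays, so it did not share the low values of Per1 and Per2 on set A. Bhlhe40 (DEC1), an E-box repressor, averaged 0.23 ± 0.06 (limma adjusted p = 0.000664), with −0.14 on set A against 0.34 on the other arrays. Of 3 D-box factors, Dbp passed downward, and its relatives Tef (0.03) and Nfil3 (0.06), a repressor at D-boxes, did not pass. Of 3 nuclear receptors of the stabilising loop, Nr1d2 (REV-ERB beta) passed downward at −0.29 ± 0.07 (limma adjusted p = 0.000338). Nr1d2 averaged −0.87 on set A against −0.12 on the other arrays, and Nr1d1 (0.03) and Rora (−0.07) did not pass over all arrays. Rora averaged 0.41 on set A, with BXD36 at 1.98, against −0.21 on the other arrays. Outside set A, where 79.4% of features passed, Rora passed (limma adjusted p = 5.76e-05). Nr1d1 (0.07, limma adjusted p = 0.0285) and Tef (0.09, limma adjusted p = 0.00991) also passed there, and Nfil3 did not. The Nr1d2 probe sits at the eighth place of its run of 8 spots, where named probes averaged −0.51 against −0.01 to 0.08 at the other places, and centring by place put its mean at 0.12 (limma adjusted p = 0.178). None of the 6 genes has its probe at that place.

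Of 7 kinases and ubiquitin ligase subunits, 4 passed upward and 1 downward, against 76.1% of all features in either direction. Csnk1e, the casein kinase 1 epsilon that phosphorylates PER proteins, averaged 0.57 ± 0.05 (limma adjusted p = 5.92e-12) and was above 0 on 30 of 31 arrays. Fbxw11, a subunit of the ligase that marks PER for breakdown, averaged 0.28, the kinase genes Gsk3b 0.24 and Prkaa2 0.22, and Csnk2a1 −0.21, all passing in limma. Of 10 further clock genes, 5 passed upward (Tipin 0.36, Sirt1 0.28, Nono 0.18, Wdr5 0.11 and Usp2 0.10) and 3 downward. Timeless, which binds Tipin, averaged −0.48 ± 0.07 (limma adjusted p = 1.22e-07). The other 2, Prkcb (−0.83) and Kdm5a (−1.17), also have probes at the eighth place, and centring by place put them at −0.41 and −0.75, both still past the test. Centring by place ended 4 of these 18 calls: Arntl (0.03, limma adjusted p = 0.61), Nr1d2, Csnk2a1 (−0.05, limma adjusted p = 0.0699) and Usp2 (0.02, limma adjusted p = 0.732). It also brought Csnk1a1 (0.19), Btrc (−0.15) and Wee1 (−0.10) past the test. Before that centring, activators, repressors, and kinases and ligases each held genes that passed upward and genes that passed downward.

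**Figure D5:**
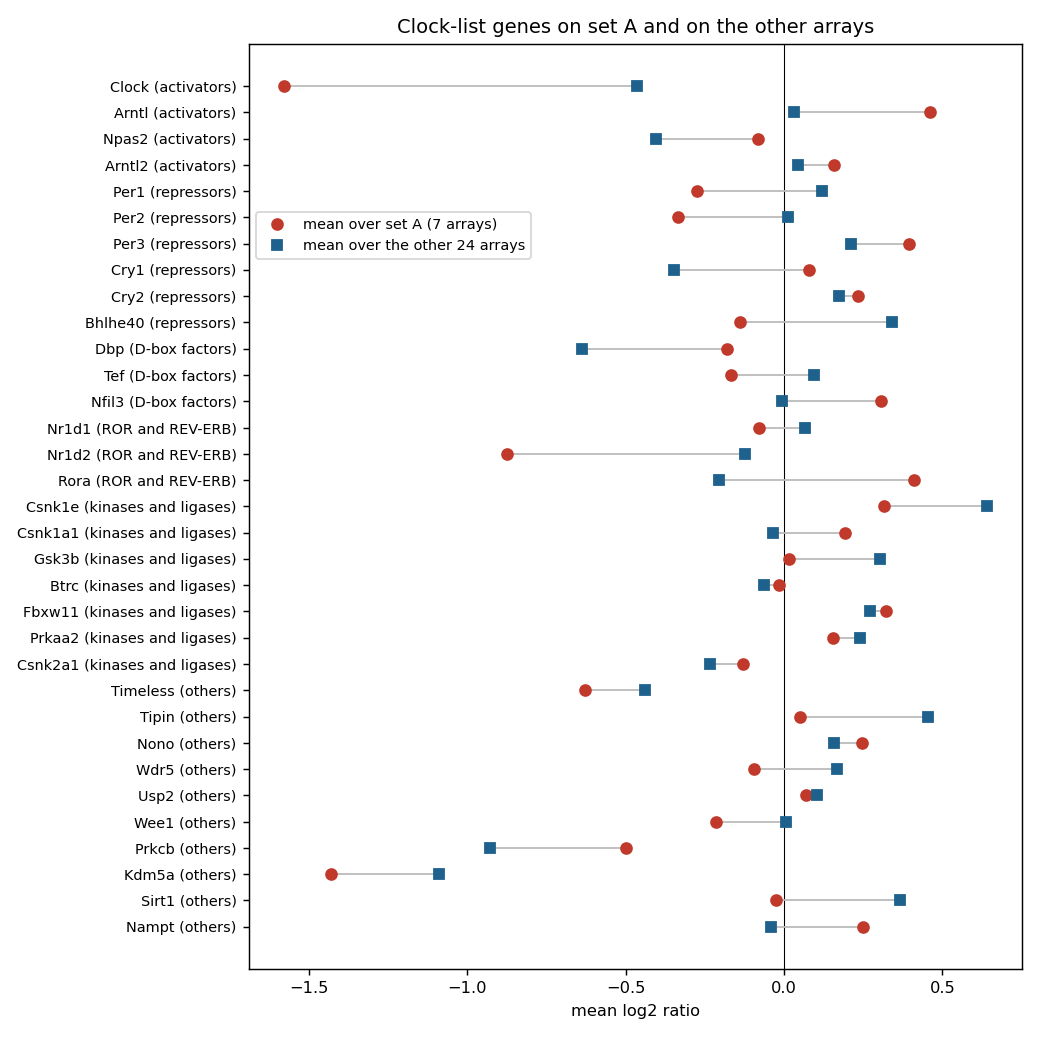
Mean log2 ratio of strain over C57BL/6J (horizontal axis) of 33 measured clock-list genes (rows, with their role) over the 7 arrays of set A (circles) and over the other 24 arrays (squares). Clock has the widest gap, −1.58 against −0.46, while Arntl, Npas2, Cry1 and Dbp are higher on set A and Per1, Per2 and Bhlhe40 are lower.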

How the data were processed

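Whole-brain RNA of 31 BXD strains was measured against C57BL/6J RNA, 1 array per strain. The authors deposited log ratios, read here as log2, with base and direction unstated. R 2.0.0 and limma are named by the submitters' processing notes. How background was corrected and arrays normalised within themselves was not given in the sources used here. Sorted values were identical in all 31 deposited columns (median 0.01, SD 0.60), so quantile normalisation between arrays had been done, and it removes any shift of a whole array. Intensities were not analysed here, and the number of arrays limits the precision. Another measurement bears on the direction: 384 unnamed spots, at 8 places in each of 48 blocks, averaged 1.59. Whether they detect the spike-in mix, added to the C57BL/6J RNA, is not given, and if they do, this goes against strain over C57BL/6J.

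Symbols came from the platform annotation, with 1 symbol for 16874 probes and several for 134, which were left unnamed; 16196 matched RefSeq by Entrez identifier with 0 symbols changed. Probes of a gene were averaged, giving 21262 features, of which 15096 are genes and 6166 are spots without a single symbol. Means, later against earlier strains and slopes on each of the 6 genes with array set as a term were fitted with limma 3.58.1 in R 4.3.3 (lmFit and eBayes, two-sided), with Benjamini-Hochberg adjustment over all features at 0.05. Each procedure was tested on simulated data, normal draws that held no array sets. A mean of 0.25 was recovered for 83% of changed genes and a later-strain difference of 0.5 for 66%. A correlation of 0.5 with Dbp was recovered for 8%. Alternatives covered array sets, centring, spot place, the variance prior, probes, leading components, a 1.2-fold bound and leaving out each strain. The genes named are the 6, the clock lists, the 3 most similar genes of each, up to 3 of each other list by adjusted p, and Gapdh as a group. Further genes of those other lists are marked as named or chosen after their values were seen. The genes and lists were chosen with earlier results of these data known.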

Additional observations from a re-analysis of the deposited data

Results flagged for a closer look

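Cry1 on BXD23 had a log2 ratio of 1.43 on an array of set A, where the nearest of the other 6 arrays was at 0.11. The gap took up 0.71 of the range of the 7 arrays. Cry1 was above 0 on 3 of the 31 arrays. Cry1 on set A was 1 of 18 combinations of gene and array group examined. The groups were set A, set B and the later strains, which share arrays with both sets. Chance sets about 1 in 20 such groups apart in this way. The pool has 1 array and Cry1 1 probe, so the value has no repeat, and its cause was not tested. The mean of Cry1 over all arrays was −0.31 without BXD23 and −0.25 with it.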

How the results depend on the processing

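No paired analysis was possible because strain numbers do not repeat between groups. Of the alternatives other than leaving out a strain, 105 values of the main results kept their direction and side of the threshold. For counts this meant a change of at most 1.5 times. Some alternatives could not move the mean of a clock gene: fitting probes singly, as each has 1, and removing centred components. Centring arrays on their medians could hardly move it, as sorted values were identical in all columns. The values that changed are given next. Cry2 under centring by place, which kept its call, and slopes on Clock, which were not main results, are added. For means, limited to set A, Dbp was −0.18, Cry1 0.0797 (reversed; −0.145 without BXD23, an alternative chosen after seeing the data), Per1 −0.27 (reversed) and Per2 −0.34, and 10190 features passed. Outside set A, Per1 was 0.12 and Per2 0.0133 (reversed), on set B Per2 was 0.0732 (reversed) and on set C Per1 was 0.14. Against 1.2-fold, 2 of the 6 genes and 5938 features passed, and Cry1 (−0.25) and Cry2 (0.19) did not. Centring by place in the run of 8 gave −0.0622 for Per1 (reversed), −0.15 for Per2 and 0.0922 for Cry2, and with the first 3 components removed Per2 (−0.0656, limma adjusted p = 0.0385) passed. With array set as a block, 0 features differed between later and earlier strains, and Cry1 (−0.18) and Per2 (−0.0219) reversed. Without a term for array set, 13 of 30 pairs passed, and 10654 features followed Clock, 3949 Dbp, 3292 Cry1, 6652 Per1 and 5327 Per2. On set C alone 146 followed Dbp and 1 Cry1. With 3 components as covariates 97 followed Dbp, 2 Cry2 and 132 Per2, and with centring by place 19 followed Cry2. Slopes on Clock reversed for Per1 with no set term (0.31) and for Dbp (0.34) and Per2 (−0.13) with 3 components. The causes were not tested. Leaving out each strain in turn gave 4 of 6 genes every time, with means between −0.73 and −0.68 for Clock, −0.55 and −0.51 for Dbp, −0.31 and −0.24 for Cry1, 0.18 and 0.20 for Cry2, 0.02 and 0.05 for Per1, and −0.08 and −0.04 for Per2, and between 16010 and 16245 features. The later-strain count ran between 0 (without BXD42) and 596 (without BXD27) and moved by over 1.5 times for 29 of 31 strains. Later minus earlier ran between −0.22 and −0.01 for Clock, −0.38 and −0.26 for Dbp, 0.05 and 0.15 for Cry1, 0.01 and 0.07 for Cry2, 0.01 and 0.10 for Per1, and −0.0251 and 0.0743 for Per2. Followers ran between 0 and 1 for Clock, 48 and 424 for Dbp, 4 and 339 for Cry1, 0 and 88 for Cry2, 0 and 0 for Per1 and 320 and 1289 for Per2, with 0 pairs passing each time. The slope of Cry1 on Clock ran between −0.38 and 0.0706, positive in 1 of 31 fits. Signal over background was not available to these fits, so dim probes could not be set aside.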

Other observations

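Genes that mark the suprachiasmatic nucleus or respond to glucocorticoids, a hormone class that itself cycles over the day, were also looked up. The RNA is of whole brain, so the values of such marker genes cannot be assigned to that nucleus. Of 9 suprachiasmatic genes measured of 13 listed, 2 passed upward and 6 downward in limma, where 76.1% of all features passed, 42.1% upward and 33.9% downward. Syt10, a synaptotagmin gene enriched in that nucleus, averaged −1.24 ± 0.08 (SE, n = 31, limma adjusted p = 2.10e-15) and was below 0 on all 31 arrays. Vipr2, the receptor through which its neurons are coupled, averaged 0.36 ± 0.03 (limma adjusted p = 1.32e-11) and was above 0 on all 31. Vip, the ligand, averaged −0.29 ± 0.05 (limma adjusted p = 3.19e-06), with −0.03 on set A against −0.36 on the other arrays. Avp, another peptide of that nucleus, named after its values were seen, averaged 0.43 ± 0.09 (limma adjusted p = 8.17e-05), with −0.35 on set A against 0.66 on the other arrays. Of 10 glucocorticoid-responsive genes, a list that includes Per1, 4 passed upward and 3 downward, again beside 76.1% of all features. Errfi1, which encodes an inhibitor of EGF receptor signalling, averaged −0.64 ± 0.04 (limma adjusted p = 5.15e-17). Pdk4, a pyruvate dehydrogenase kinase gene, averaged −0.80 ± 0.08 (limma adjusted p = 1.83e-10), with −0.24 on set A against −0.96 on the other arrays. Sult1a1 averaged 0.02 on set A against −0.61 on the others. These are the 3 genes of the list that passed downward. The 4 that passed upward, named after their values were seen, were Fkbp5 (0.38, limma adjusted p = 6.64e-09), Cdkn1a (0.13), Zbtb16 (0.12) and Tsc22d3 (0.07).

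Within array sets, Syt10 had a slope of 0.92 on Dbp (limma adjusted p = 0.0212) and Pdk4 one of 0.75 (limma adjusted p = 0.0426). Lhx1, a transcription factor gene of the suprachiasmatic nucleus that was chosen after its values were seen, had a slope of −1.80 on Per2 (limma adjusted p = 0.0112), where BXD32 held the lowest Per2. The F5 gene, listed here for choroid plexus and with its probe at the eighth place, had a slope of −0.92 on Per2 (limma adjusted p = 0.0165). These slopes were picked from those of all measured genes of these lists on each of the 6 genes. Over all features 1.12% passed with Dbp and 5.35% with Per2, so such passes say little about these lists. Of 13 immediate early genes 5 passed upward and 4 downward, of 9 pituitary genes 3 and 2, of 7 choroid plexus genes 4 and 3, and of 5 blood genes 1 and 3. These counts stand beside the same 76.1% of all features. The part of these tissues in the values of the 6 clock genes was not tested. Spots annotated to Gapdh averaged −0.22 ± 0.03.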
